A study of Mus musculus with 6 samples.

Results

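The genes described here are 10 keratins, the structural proteins of the epithelial cytoskeleton: *Krt5*, *Krt14* and *Krt15* of basal cells, *Krt6a*, *Krt16* and *Krt17* of wounded and stressed epithelium, and *Krt7*, *Krt8*, *Krt18* and *Krt19* of simple, single-layered epithelium. They were taken by name, through array probes whose RefSeq accession belongs to one of these genes. They make up 10 of the 54 keratin genes with a probe on the array and 10 of the 14345 genes tested. All 10 were measured, and all 10 were well above background, by the mark of the scanner software, on all 6 arrays.

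Mouse airway epithelial organoids (MAOs) are airway cells of mouse lung grown as small self-organising clusters. Here, cells of the C57BL/6 strain were taken from such organoids and plated as a flat sheet (2D-MAOs) on plates coated with type I collagen. In 3 cultures TGF-β1, a secreted growth factor, was present from day 3, and 3 control cultures did not receive it. Cultures of both groups were kept from day 3 without noggin, an inhibitor of bone morphogenetic proteins, and without A83-01, an inhibitor of the TGF-β receptor, and all were collected on day 7. The array methods name no TGF-β1 concentration. The study describes 3 biological replicates per group without saying whether they came from separate animals, so every p-value below measures only the spread between these cultures. All values are log2 signals after quantile normalisation. The log2 change is the mean of the TGF-β1 arrays minus the mean of the controls, so that 1 stands for 2-fold. A gene was called when this change was at least 1 in size and its limma p-value, adjusted over all genes, was under 0.05.

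Keratin filaments are built from pairs in which a type II chain (*Krt5*, *Krt6a*, *Krt7* and *Krt8* here) joins a type I chain (*Krt14* to *Krt19* here). The usual partners are Krt5 with Krt14 in basal cells, Krt8 with Krt18 in simple epithelia, and Krt6a with Krt16 or Krt17 at wound edges. In the airway, Krt5 and Krt14 mark the basal stem cells that rest on the basement membrane, while Krt8, Krt18, Krt7 and Krt19 are abundant in the cells above them. Filaments are tied to neighbouring cells by desmosomes and to the basement membrane by hemidesmosomes.

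The 10 keratins did not move as a block. *Krt16* and *Krt17* were called and rose with TGF-β1, to 2.14 and 2.08 times the control signal, and no member was called lower. The count was 2 of 10 higher, beside 1.19% of all genes tested, and 0 of 10 lower, beside 0.188%. With 292 genes under the adjusted threshold among all genes (2.04%), the same 2 members were the only ones under it. An unadjusted limma p under 0.05 was found for 5 members, all of them higher. The share of all genes under that unadjusted threshold was not computed, so this count and those given for the lists below have no background beside them. *Krt6a*, *Krt14* and *Krt5* had larger differences than the 2 called genes but a wider spread between the treated arrays, and none of the 3 was called. In all, 5 of 10 members had a log2 change of at least 1, beside 2.93% of all genes. By sign alone 8 members were higher and 2 lower, which became 6 and 4 when arrays were scaled to their 75th percentile. The median log2 change was 0.67 over the members and -0.03 over all genes. In 3 members, *Krt14*, *Krt16* and *Krt17*, every TGF-β1 array lay above every control array, beside 12.9% of all genes, and in 0 members did every TGF-β1 array lie below, beside 13.5%. With 3 arrays per group the smallest exact two-sided permutation p was 0.1, and these 3 genes reached it.

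One array bears on most of these values. Among the TGF-β1 arrays, replicate 3 gave the lowest signal for all 10 keratins, while 36.5% of all genes tested were lowest there. It was not dim as a whole, with 55.6% of probes well above background against 55.0% to 59.0% on the other arrays. The arrays shared 1 slide and 1 scan time, and the arrays of replicate 3 of both groups lay in slide row 2 with the other 4 in row 1. Without that array 5 of the 10 keratins were called higher, beside 3.86% of all genes, and 0 lower, beside 1.09%. Leaving out any 1 of the other arrays instead gave 0 called, beside 0.342% to 1.05% of all genes called higher. Values without it or within a slide row are given with the members. In whole-culture RNA, fewer cells of a type and less RNA per cell cannot be told apart.

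**Figure D1:**
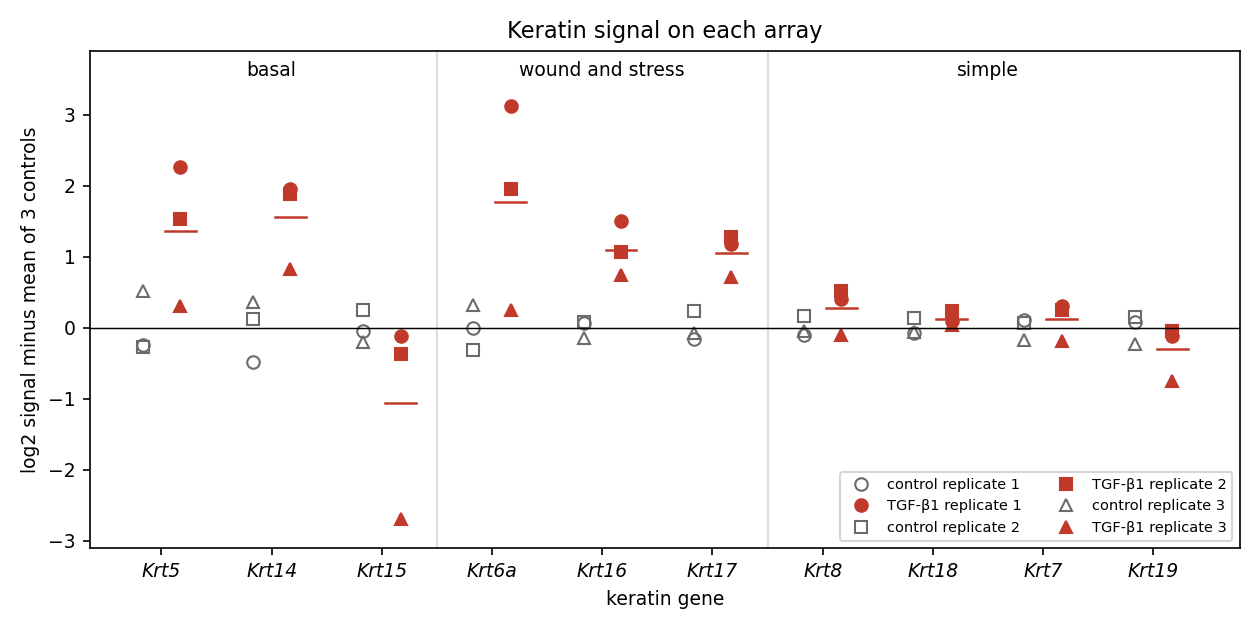
Signal of the 10 keratins on each array, as the log2 signal minus the mean of the 3 controls (y axis), grouped by role (x axis). Open grey symbols are control arrays, filled red symbols are TGF-β1 arrays, the symbol shape gives the replicate number and the short red line is the mean of the 3 TGF-β1 arrays. Filled triangles show TGF-β1 replicate 3, the lowest filled symbol for all 10 genes, and the filled symbols of *Krt14*, *Krt16* and *Krt17* lie above all open ones.

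The keratin genes lie in clusters, type II on chromosome 15 and type I on chromosome 11, with *Krt18* as the type I gene that sits in the type II cluster next to its partner *Krt8*. In the RefSeq gene order, *Krt14*, *Krt16* and *Krt17* follow each other on chromosome 11, with *Krt15* and *Krt19* nearby, and *Krt6a* and *Krt5* are neighbours on chromosome 15. Promoter sequences are shown for the 4 members with a usable window in the RefSeq promoter table, *Krt5*, which had a large difference, and the simple keratins *Krt7*, *Krt8* and *Krt18*, which had small ones. Each runs from 250 bases before the RefSeq start to 25 bases from it onward, on the gene's own strand of GRCm38.p6: *Krt5* at chr15:101712881-101713155 on the minus strand, *Krt7* at chr15:101412153-101412427 on the plus strand, *Krt8* at chr15:102004318-102004592 on the minus strand and *Krt18* at chr15:102027966-102028240 on the plus strand. Capitals mark matches to the motifs named after the sequences, on either strand.
Krt5: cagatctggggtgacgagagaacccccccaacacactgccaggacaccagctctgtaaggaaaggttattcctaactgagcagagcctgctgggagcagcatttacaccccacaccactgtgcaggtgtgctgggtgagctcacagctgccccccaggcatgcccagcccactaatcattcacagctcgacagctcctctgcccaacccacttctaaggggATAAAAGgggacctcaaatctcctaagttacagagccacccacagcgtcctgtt
Krt7: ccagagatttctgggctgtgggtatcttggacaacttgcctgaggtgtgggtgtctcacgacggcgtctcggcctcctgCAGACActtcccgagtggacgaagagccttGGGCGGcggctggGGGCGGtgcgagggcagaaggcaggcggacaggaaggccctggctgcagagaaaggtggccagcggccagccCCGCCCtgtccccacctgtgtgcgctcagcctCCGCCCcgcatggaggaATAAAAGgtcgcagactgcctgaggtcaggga
Krt8: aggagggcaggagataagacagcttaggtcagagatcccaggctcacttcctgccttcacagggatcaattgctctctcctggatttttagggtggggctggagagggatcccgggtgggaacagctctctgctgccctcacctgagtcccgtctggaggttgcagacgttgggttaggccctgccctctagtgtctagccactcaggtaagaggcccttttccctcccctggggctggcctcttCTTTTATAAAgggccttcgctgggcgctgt
Krt18: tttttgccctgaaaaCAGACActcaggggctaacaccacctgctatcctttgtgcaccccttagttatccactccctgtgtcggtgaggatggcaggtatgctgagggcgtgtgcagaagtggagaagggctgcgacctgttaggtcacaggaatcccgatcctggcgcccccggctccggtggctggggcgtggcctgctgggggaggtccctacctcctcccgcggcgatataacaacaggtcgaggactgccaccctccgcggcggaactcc

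The search covered both strands. The TATA box was read as TATAAA and occurred in 13.0% of all 32851 windows of this length. Its variant with the letters ATAAAAG, added after the sequences had been read, occurred in 5.12%. For the AP-1 site, TGANTCA, the share was 7.35%. For the SMAD box, CAGACA, it was 19.1%, and for the GC box, GGGCGG, it was 34.4%. *Krt5* held the variant starting 29 bases before the start, and *Krt7* held it 7 bases before. *Krt8* held the TATA box on both strands, 1 and 3 bases before the start, and these matches overlap each other and a reverse match of the variant. The SMAD box, to which proteins of the TGF-β pathway can bind, occurred in the windows of *Krt7*, 171 bases before the start, and of *Krt18*, 235 bases before. *Krt7* also held 4 GC boxes, and the AP-1 site matched in none of the 4 windows. The GC content was 56.4% in *Krt5*, 65.8% in *Krt7*, 58.2% in *Krt8* and 61.8% in *Krt18*, beside a median of 52.4% over all windows. These matches describe the letters of the windows and nothing more. *Krt6a*, *Krt15*, *Krt16*, *Krt17* and *Krt19* are named without a sequence, and the window listed for *Krt14* began inside its gene record and was not used.

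*Krt5*, the type II keratin of basal cells, had log2 signals of 12.68, 12.64 and 13.43 in control replicates 1 to 3 and of 15.17, 14.45 and 13.23 in TGF-β1 replicates 1 to 3. TGF-β1 replicates 1 and 2 were above all controls, replicate 3 was below control replicate 3, and the groups overlapped. The means were 12.92 ± 0.44 and 14.28 ± 0.98 (SD, n = 3 each), a log2 change of 1.37 (SE 0.49, 95% interval 0.21 to 2.52) with a limma adjusted p of 0.178. Leaving out TGF-β1 replicate 3 gave 1.90 at an adjusted p of 0.0195, so that 1 array decided whether *Krt5* was called. Within slide row 1 the difference was 2.15 and within row 2, with 1 array per group, it was -0.20.

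*Krt14*, the type I partner of *Krt5*, gave 13.94, 14.55 and 14.79 in the controls and 16.38, 16.30 and 15.25 with TGF-β1. The groups did not overlap, and TGF-β1 replicate 3 lay closest to the controls. From 14.43 ± 0.44 to 15.98 ± 0.63 (SD, n = 3 each), the log2 change was 1.55 (SE 0.35, 95% interval 0.71 to 2.39), or 2.93 times, with a limma adjusted p of 0.0859. It too was called without TGF-β1 replicate 3, at 1.92 with an adjusted p of 0.0109. The difference was 2.10 within slide row 1 and 0.46 within row 2.

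*Krt15*, another type I keratin of basal cells, had the opposite sign to *Krt5* and *Krt14*. Its signals were 14.14, 14.43 and 13.98 in the controls and 14.07, 13.81 and 11.49 with TGF-β1. TGF-β1 replicate 1 lay within the control range, replicate 2 just below it, and replicate 3 far below every other array. The log2 change of -1.06 (SE 0.64, 95% interval -2.58 to 0.47, adjusted p = 0.353 by limma) rested on that array, and leaving it out gave -0.24 at an adjusted p of 0.346. It was -0.34 within slide row 1 and -2.49 in row 2. The basal keratins thus differed in sign, but the difference between *Krt15* and the other 2 was not tested.

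*Krt6a*, a type II keratin known for its induction at wound edges, had the largest difference of the 10. It read 9.31, 9.01 and 9.63 in the controls and 12.44, 11.26 and 9.57 with TGF-β1. TGF-β1 replicates 1 and 2 were above every control, and replicate 3 lay inside the control range. The means were 9.32 ± 0.31 and 11.09 ± 1.44 (SD, n = 3 each), with a log2 change of 1.77 (SE 0.66, 95% interval 0.21 to 3.34) and a limma adjusted p of 0.190. Without TGF-β1 replicate 3 it was called, at 2.53 with an adjusted p of 0.0135. The difference was 2.69 within slide row 1 and -0.064 within row 2.

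*Krt16*, a type I partner of Krt6a, rose in a narrower band. Its brighter probe gave 7.84, 7.86 and 7.63 in the controls and 9.27, 8.85 and 8.51 with TGF-β1, and every TGF-β1 array was above every control. The means of 7.78 ± 0.13 and 8.88 ± 0.38 (SD, n = 3 each) differed by 1.10 (SE 0.20, 95% interval 0.63 to 1.58) on the log2 scale, with a limma adjusted p of 0.0492. A second probe of *Krt16* gave 7.79, 7.42 and 7.58 in the controls and 8.45, 8.09 and 7.88 with TGF-β1. Its groups did not overlap either, but its log2 change was 0.54, with an adjusted p of 0.131 over all probes. *Krt16* was the dimmest member against its surroundings, its spot being 6.61 to 19.2 times as bright as the local background.

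*Krt17*, which can pair with Krt6a and is also found in basal cells of complex epithelia, gave 15.71, 16.11 and 15.79 in the controls and 17.05, 17.16 and 16.58 with TGF-β1. The groups did not overlap, and TGF-β1 replicate 3 was again the lowest of its group. The means rose from 15.87 ± 0.21 to 16.93 ± 0.31 (SD, n = 3 each), a log2 change of 1.06 (SE 0.19, 95% interval 0.61 to 1.50) with a limma adjusted p of 0.0472. Both calls sat close to the threshold: leaving out any 1 of the 5 arrays other than TGF-β1 replicate 3 ended both, with adjusted p of 0.0889 to 0.164 for *Krt16* and 0.0865 to 0.193 for *Krt17*. Without TGF-β1 replicate 3 both were called, at 1.28 for *Krt16* and 1.23 for *Krt17*. *Krt17* also lost its call with scaling to the 75th percentile (0.83, adjusted p = 0.0882), and *Krt16* with the mean of its 2 probes (0.82, adjusted p = 0.0785) and, by its size alone, with normexp background (0.94), while neither was called with the filter on dim probes dropped or with the replicate number as a block. Their differences in slide row 2, 0.88 and 0.79, were the highest of the 10 members there.

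**Figure D2:**
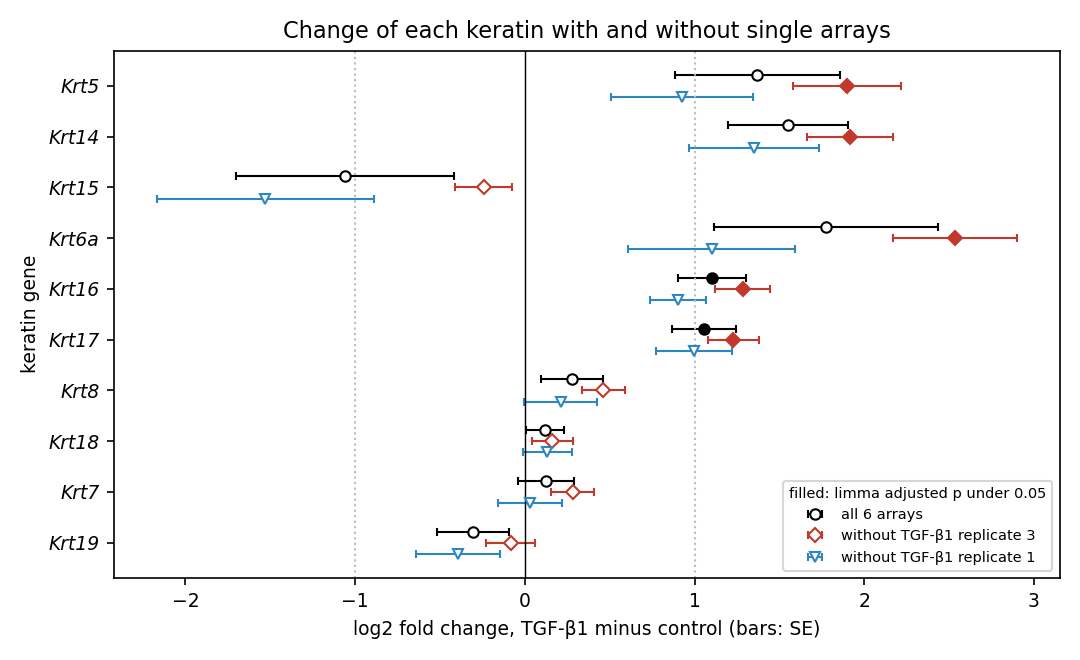
Log2 fold change of each keratin (x axis, TGF-β1 minus control, bars show the SE) with all 6 arrays (black circles), without TGF-β1 replicate 3 (red diamonds) and without TGF-β1 replicate 1 (blue triangles), filled where the limma adjusted p is under 0.05. *Krt16* and *Krt17* are filled with all arrays, *Krt5*, *Krt6a*, *Krt14*, *Krt16* and *Krt17* without TGF-β1 replicate 3, and none without TGF-β1 replicate 1.

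The keratins of simple epithelia differed less. *Krt8*, the type II chain of the simple pair, gave 16.02, 16.29 and 16.08 in the controls and 16.54, 16.65 and 16.03 with TGF-β1. TGF-β1 replicates 1 and 2 were above the controls and replicate 3 was among them. The log2 change was 0.28 (SE 0.18, 95% interval -0.16 to 0.71, limma adjusted p = 0.392), and it was 0.44 within slide row 1 and -0.045 within row 2. Leaving out TGF-β1 replicate 3 gave 0.46 at an adjusted p of 0.0606.

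*Krt18*, its type I partner, gave 16.22, 16.42 and 16.23 in the controls and 16.38, 16.52 and 16.33 with TGF-β1. The groups overlapped, and this was the narrowest spread of the 10 members, with an SD of 0.11 in the controls and 0.10 with TGF-β1. Its log2 change was 0.12 (SE 0.11, limma adjusted p = 0.552). The 95% interval of -0.15 to 0.39 does not reach a 2-fold difference in either direction. With arrays scaled to their 75th percentile the sign turned, to -0.070.

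*Krt7*, a type II keratin of ducts and glands, read 15.49, 15.45 and 15.21 in the controls and 15.70, 15.64 and 15.19 with TGF-β1. Replicate 3 was the lowest array of either group, and the groups overlapped. The log2 change was 0.12 (SE 0.17, 95% interval -0.27 to 0.52, limma adjusted p = 0.674), and it became -0.16 with scaling to the 75th percentile and -0.016 within slide row 2. It was 0.19 within row 1 and 0.28 (adjusted p = 0.173) without TGF-β1 replicate 3.

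*Krt19*, a type I keratin of simple epithelium that is also found in basal airway cells, gave 16.45, 16.52 and 16.14 in the controls and 16.25, 16.33 and 15.62 with TGF-β1. TGF-β1 replicate 3 was the lowest array, and the groups overlapped. Its log2 change was -0.30 (SE 0.21, 95% interval -0.81 to 0.20, limma adjusted p = 0.414). Leaving out TGF-β1 replicate 3 brought it to -0.084 (adjusted p = 0.712), and it was -0.20 within slide row 1 and -0.52 within row 2. The intervals of *Krt7*, *Krt8*, *Krt18* and *Krt19* all stayed within 2-fold, whereas those of the basal and wound keratins reached beyond it.

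Because the chains of a pair assemble together, the difference in log2 signal between the partners was followed on each array, relative to its mean in the controls. No test was applied to it, and its level depends on the probes, so that it is read between arrays only. For *Krt5* minus *Krt14* the values were 0.25, -0.39 and 0.14 in the controls and 0.30, -0.34 and -0.51 with TGF-β1, and for *Krt8* minus *Krt18* they were -0.04, 0.03 and 0.01 in the controls and 0.31, 0.29 and -0.13 with TGF-β1. In both pairs the groups overlapped, and the changes of the partners differed by -0.18 and 0.16.

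For *Krt6a* minus *Krt16* the values were -0.07, -0.39 and 0.46 in the controls and 1.63, 0.88 and -0.48 with TGF-β1. TGF-β1 replicates 1 and 2 lay above the controls and replicate 3 below them. The changes differed by 0.67 over all arrays, by 1.48 within slide row 1 and by -0.95 within row 2, and those of *Krt6a* and *Krt17* differed by 0.72, 1.50 and -0.85 in the same order.

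Of the pairs followed, only *Krt7* minus *Krt19* had groups that separated. Its values were 0.03, -0.08 and 0.05 in the controls and 0.43, 0.30 and 0.55 with TGF-β1. All 3 TGF-β1 arrays, replicate 3 included, lay above all controls, although neither gene of the pair was called. How often groups separate for other gene pairs was not computed, so this separation has no background beside it. Among single genes tested, the groups did not overlap in 26.4%, both directions together. The changes differed by 0.43, by 0.39 within slide row 1, by 0.50 within row 2 and by 0.34 with scaling to the 75th percentile.

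**Figure D3:**
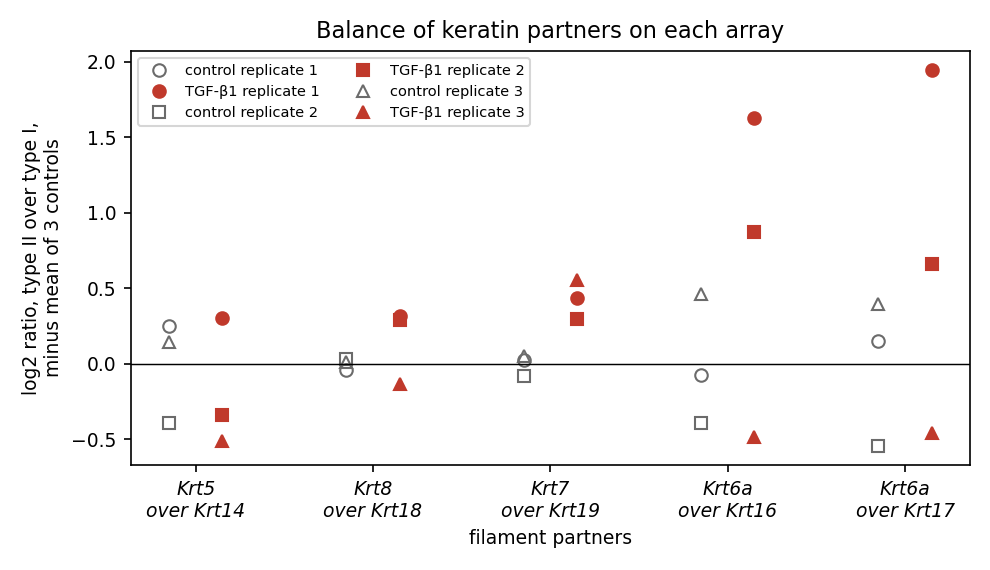
Balance of keratin partners on each array, as the log2 ratio of the type II over the type I gene minus its mean in the 3 controls (y axis), for 5 partner pairs (x axis). Open grey symbols are controls and filled red symbols TGF-β1, with the shape giving the replicate number. No test was applied, and no share of separated groups over other gene pairs was computed. The filled symbols of *Krt7* over *Krt19*, from 0.30 to 0.55, lie above all open ones, and in the *Krt6a* pairs TGF-β1 replicates 1 and 2 lie above the controls while replicate 3 lies below them against *Krt16* and among them against *Krt17*.

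Of the 44 other keratin genes with a probe, 19 passed the filter for dim probes and 25 did not. *Krt6b*, a near copy of *Krt6a*, was among the 25, with 0 of 6 arrays well above background. Of the 19, 5 were higher and 14 lower by sign, 0 were called in either direction, and their median log2 change was -0.20. The groups did not overlap in 4 that were higher, beside 12.9% of all genes, and 4 that were lower, beside 13.5%. Of the 19, 4 were higher and 5 lower with an unadjusted limma p under 0.05, with no share over all genes computed. Without TGF-β1 replicate 3, limma called *Krt20* and *Krt75* higher, beside 3.86% of all genes, and *Krt4* lower, beside 1.09%. The call of *Krt75* is not read further, since its probe passed the filter through the TGF-β1 arrays, with 1 of 3 controls well above background.

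*Krt75*, a type II keratin of hair follicles and neighbour of the *Krt6* genes, gave 4.94, 2.91 and 3.58 in the controls and 8.39, 6.37 and 6.39 with TGF-β1. Every TGF-β1 array was higher, but the probe was well above background on 1 of the 3 controls and on all 3 TGF-β1 arrays, and a second probe of the gene on none. With 2 of its 3 controls not well above background, no fold is given for it. *Krt20*, a type I keratin of intestine and urothelium, had a log2 change of 1.55 (adjusted p = 0.0857), with 8.66, 9.33 and 8.93 in the controls and 11.09, 10.72 and 9.76 with TGF-β1.

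*Krt4* and *Krt13*, the partners of stratified epithelia such as the oesophagus, had negative values. *Krt4* gave 6.67, 6.26 and 5.71 in the controls and 4.90, 3.68 and 5.01 with TGF-β1, a log2 change of -1.69 (limma adjusted p = 0.0927). Its probe was well above background on all 3 controls but on 2 of the 3 TGF-β1 arrays, so the size of this change rests in part on a dim value. *Krt13* gave 7.09, 7.12 and 7.11 in the controls and 6.50, 6.47 and 4.69 with TGF-β1, a log2 change of -1.22 (limma adjusted p = 0.198). A second probe of *Krt13* gave -1.59 and was well above background on 1 of the 3 TGF-β1 arrays. In both genes the groups did not overlap. Among the TGF-β1 arrays *Krt13* was lowest on replicate 3, as were all 10 keratins of the group and 36.5% of all genes tested. Probe sequences are not among the files used here, so binding of one keratin's RNA to the probe of a near-identical keratin, such as *Krt6a* and *Krt6b* or *Krt14*, *Krt16* and *Krt17*, was not tested.

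**Figure D4:**
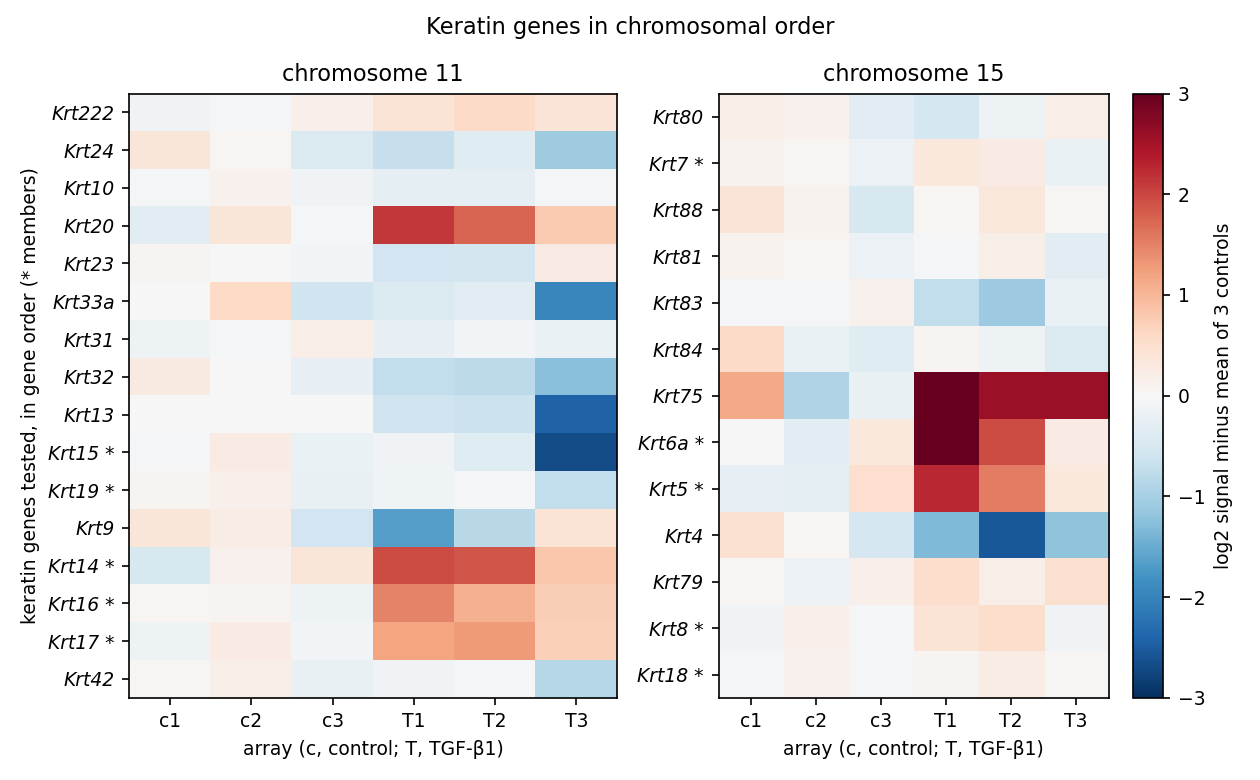
Keratin genes that passed the filter, in gene order on chromosomes 11 and 15 (rows, members of the group of 10 marked by a star), on the 6 arrays (columns, c for control and T for TGF-β1 with the replicate number). Colour gives the log2 signal minus the mean of the 3 controls, and values beyond 3 take the end colour. Red cells in the T columns of *Krt14*, *Krt16* and *Krt17* and of *Krt75*, *Krt6a* and *Krt5* stand beside blue ones of *Krt13* and *Krt15* on T3 and of *Krt4*.

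The genes that anchor keratin filaments in the membrane were mostly higher by sign: 16 of 18 genes of desmosomes, hemidesmosomes and filament linkers were higher and 2 lower, with a median log2 change of 0.45. Of these, 1 was called higher, beside 1.19% of all genes, and 0 lower, and the groups did not overlap in 10 that were higher, beside 12.9%. The called gene was *Dst*, which encodes dystonin, a linker of filaments to hemidesmosomes, and it gave 9.88, 9.87 and 9.90 in the controls and 11.29, 11.23 and 10.54 with TGF-β1. Its log2 change was 1.14 (SE 0.21, limma adjusted p = 0.0484), near the threshold like those of *Krt16* and *Krt17*. An adjusted or unadjusted p under 0.05 was found for *Dst* in 9 of 18 alternative tests. *Col17a1*, the transmembrane collagen of the hemidesmosome, gave 7.54, 8.02 and 9.15 in the controls and 11.65, 10.55 and 8.89 with TGF-β1, with groups that overlapped. *Col17a1* had a log2 change of 2.13 (adjusted p = 0.167), *Eppk1* (epiplakin) of 1.56 (adjusted p = 0.0991), *Itga6* (integrin α6) of 0.92 (adjusted p = 0.0798) and *Plec* (plectin) of 0.85 (adjusted p = 0.126), all by limma. Without TGF-β1 replicate 3, 7 of the 18 were called higher, beside 3.86% of all genes. Leaving out any 1 of the other arrays gave 0 called.

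Basal cell genes other than keratins were higher by sign in 13 of 15 cases, with a median of 0.48. Of the 15, 1 was called higher, beside 1.19% of all genes, and 0 lower, and the groups did not overlap in 8 that were higher, beside 12.9%. The called gene was *Sfn* (stratifin), with 15.62, 15.88 and 15.59 in the controls and 16.89, 16.98 and 16.91 with TGF-β1. TGF-β1 replicate 3 did not stand apart here. The log2 change of *Sfn* was 1.23 (SE 0.12, limma adjusted p = 0.00741), with an adjusted or unadjusted p under 0.05 in 17 of 18 alternative tests and a value of 1.00, just short of the fold threshold, with scaling to the 75th percentile. *Ngfr*, a surface receptor of basal cells, had a log2 change of 1.36 (adjusted p = 0.154), *Cdh3* (P-cadherin) of 1.33 (adjusted p = 0.0736) and *Lama3*, a laminin chain of the basement membrane, of 1.15 (adjusted p = 0.124). Without TGF-β1 replicate 3, 5 of the 15 were called higher, beside 3.86% of all genes, *Sfn*, *Ngfr*, *Cdh3* and *Lama3* among them. Leaving out any 1 of the other arrays left *Sfn* as the only call. *Trp63*, the transcription factor p63 of basal cells, had a log2 change of 0.18 (adjusted p = 0.332) and is named although the rule for naming genes did not select it.

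The remaining lists held 0 genes called by limma with all arrays. Without TGF-β1 replicate 3, *Vim* and *Nes* were called higher, beside 3.86% of all genes, and *Sprr1a* and *Elf3* lower, beside 1.09%. Of 17 other intermediate filament genes on the array, 10 passed the filter, with 6 higher, 4 lower and a median of 0.06. An unadjusted limma p under 0.05 was found for 3 that were higher, with no share over all genes computed. *Vim* (vimentin) gave 4.80, 4.81 and 3.89 in the controls and 7.07, 6.55 and 5.04 with TGF-β1, all well above background and without overlap, and its log2 change was 1.72 (SE 0.53, limma adjusted p = 0.147). *Nes* (nestin) had 1.01 (adjusted p = 0.0811), *Iffo2* 0.48 (adjusted p = 0.212) and *Synm* 0.42 (adjusted p = 0.258). Of 14 squamous differentiation genes, 10 were tested, 2 being higher and 8 lower with a median of -0.24, 0 with an unadjusted p under 0.05 and 0 whose groups stood apart. *Sprr1a* had a log2 change of -0.82 (adjusted p = 0.258), *Sprr3* of -0.60 (adjusted p = 0.486), *Krtdap* of -0.40 (adjusted p = 0.451) and *Cnfn* of -0.36 (adjusted p = 0.362), genes of the cornified surface of stratified epithelium.

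Of 16 transcription factors known to act at keratin genes, 6 were higher and 10 lower, with a median of -0.23, and the groups stood apart in 2 that were higher, beside 12.9% of all genes, and 7 that were lower, beside 13.5%. An unadjusted limma p under 0.05 was reached by 2 higher and 5 lower factors, with no share over all genes computed. *Elf3* gave 12.11, 11.52 and 12.08 in the controls and 11.08, 10.38 and 11.44 with TGF-β1, and *Ovol1* gave 7.63, 7.75 and 7.90 in the controls and 6.91, 6.72 and 7.43 with TGF-β1. Every TGF-β1 array was below every control in both. Their log2 changes were -0.94 (limma adjusted p = 0.152) and -0.74 (limma adjusted p = 0.115), and those of *Jun*, a part of AP-1, and *Gata3* were 0.63 (adjusted p = 0.162) and -0.55 (adjusted p = 0.266).

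**Figure D5:**
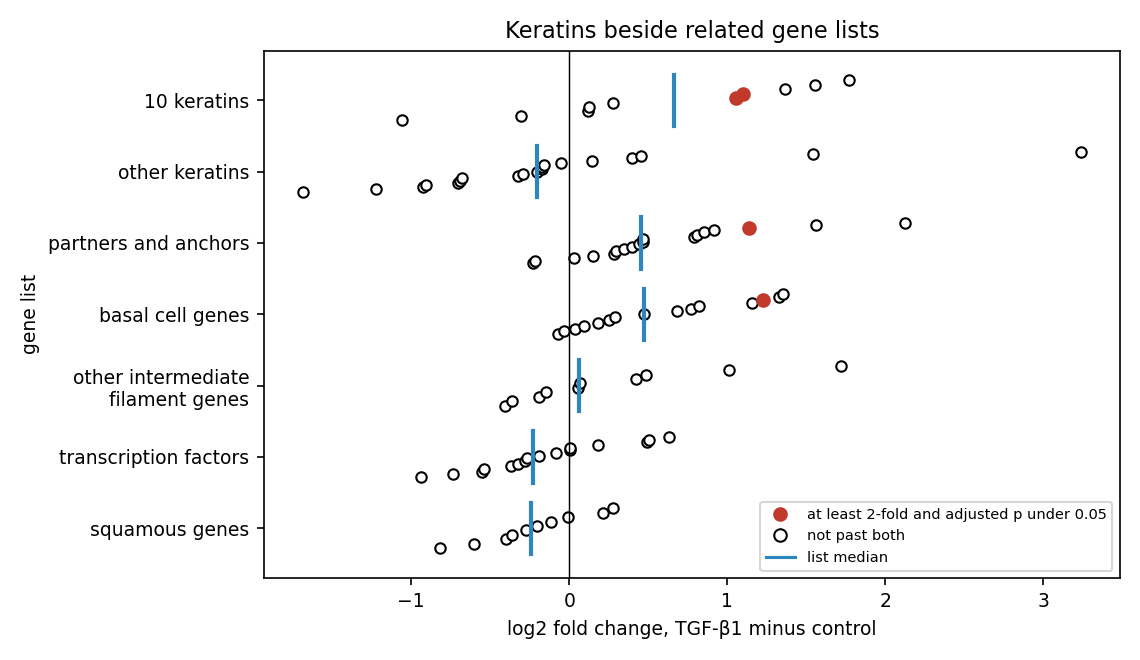
Log2 fold change, TGF-β1 minus control (x axis), of each tested gene in the group of 10 keratins and in 6 related gene lists (y axis), with the list median as a blue bar. Red points are at least 2-fold changed with a limma adjusted p under 0.05: *Krt16*, *Krt17*, *Dst* and *Sfn*. The medians run from 0.67 for the 10 keratins and 0.48 for basal cell genes to -0.24 for squamous genes.

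Markers of other cells were read beside the keratins. Fibroblast markers, 3 of 7 of which were well above background on all arrays and 2 of which (*Col3a1* and *Lum*) were on none, had a mean log2 signal of 4.08 to 4.24 in the controls and 4.80 to 5.73 with TGF-β1, and their largest difference was that of *Thy1* (2.47, limma adjusted p = 0.176). All 5 that were tested were higher, and 2 were called, beside 1.19% of all genes called higher. These were the collagen I genes *Col1a1* and *Col1a2*, which are named after their values were seen. Both were well above background on every TGF-β1 array and on no control, and so passed the filter through the TGF-β1 arrays alone. Their calls are therefore not read as a test. Only a bound holds, in which each control takes the lowest signal well above background on its array, or its own where higher. By it *Col1a1* was at least 2.16-fold higher and *Col1a2* at least 2.38-fold. Smooth muscle markers, 4 of 5 on all arrays and *Myh11* on none, ranged from 8.11 to 8.62 and from 8.70 to 9.50, and *Cnn1* (calponin) rose by 2.13 on the log2 scale (limma adjusted p = 0.0231). It was the 1 called of 4 tested, beside 1.19% of all genes called higher. *Tagln* had a log2 change of 2.00 (limma adjusted p = 0.0735), with every TGF-β1 array above every control. The log2 changes were 0.02 for *Acta2* (limma adjusted p = 0.960) and -0.18 for *Actg2* (limma adjusted p = 0.593). *Tagln*, *Acta2* and *Actg2* are named after their values were seen. The mean levels of both lists thus moved with the groups, and TGF-β1 replicate 3 had the lowest of the TGF-β1 values on both lists, as it had for the keratins. Their part in the keratin differences was not tested.

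Among airway lineages, ciliated markers were on all arrays in 5 of 5 cases, with a mean of 7.45 to 7.82 in the controls and 7.75 to 8.41 with TGF-β1. *Foxj1*, the master regulator of motile cilia, rose by 1.47 (limma adjusted p = 0.00239) and was the 1 called of 5. The others, named after their values were seen, had smaller log2 changes: 0.26 for *Tppp3*, 0.24 for *Cdhr3*, 0.11 for *Dynlrb2* and 0.10 for *Ccdc153* (limma adjusted p of 0.298 to 0.870). Club cell markers ranged from 10.36 to 11.34 and from 10.07 to 10.71, where *Scgb1a1* had the largest difference (-2.27, limma adjusted p = 0.158). Of the 5 club markers, 4 were lower and 1 higher, and 0 were called. The higher one, *Scgb3a2* (1.05, limma adjusted p = 0.117, also named after its values were seen), had every TGF-β1 array above every control. The goblet markers *Muc5ac*, *Muc5b* and *Clca1* were well above background on no array. *Agr2*, well above background on 2 of 3 arrays in each group, had -1.07 (limma adjusted p = 0.303), and its groups overlapped. *Spdef*, the other goblet marker tested and also named after its values were seen, had 0.12 (limma adjusted p = 0.764). Mesothelial markers ranged from 7.83 to 8.29 and from 7.56 to 7.70, a mean that includes *Upk3b*, *Wt1* and *Lrrn4*, which were on no array. The 2 tested had opposite signs, *Upk1b* at -1.22 (limma adjusted p = 0.0849) and *Msln* at 0.12 (limma adjusted p = 0.543). *Msln* is also named after its values were seen. The type 2 alveolar markers *Sftpc*, *Sftpb* and *Sftpa1*, the endothelial markers *Cdh5*, *Kdr*, *Tek* and *Emcn* and the leukocyte markers *Ptprc*, *Adgre1* and *Cd79a* were also well above background on no array. In the same lists the largest differences were 0.16 for *Lamp3* (adjusted p = 0.524), 0.13 for *Pecam1* (adjusted p = 0.505) and 0.90 for *Cd68* (adjusted p = 0.147). *Cd3e*, the other leukocyte marker tested, had the opposite sign, at -0.24 (limma adjusted p = 0.395), and is named after its values were seen. Type 1 alveolar markers, 4 of 4 on all arrays, ranged from 12.97 to 13.78 and from 13.04 to 13.36, the largest difference being -0.48 for *Hopx* (adjusted p = 0.368).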

How the data were processed

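RNA of 6 cultures was labelled with 1 dye (Cy3) and hybridised to Agilent mouse arrays, 1 array per culture, on 1 slide. The deposited files hold spot intensity on a linear scale, which the authors obtained with Agilent Feature Extraction 11.0.1.1 after background subtraction, with no normalisation between arrays. As in the study's methods, log2 intensity was then normalised by quantiles. Control spots and spots marked as outliers (74 to 112 per array) were left out, and 0 transcript spots were saturated. Of 56599 probes kept, 32991 had a RefSeq accession that matched a gene of GRCm38.p6, the basis of 22910 genes. A probe was tested when well above background on at least 3 arrays, and a gene was represented by its brightest such probe, which gave 14345 genes. Groups were compared with limma 3.58.1 in R 4.3.3 with Benjamini-Hochberg adjustment over these genes, beside exact two-sided permutation tests. The number of arrays limits the precision. Brightness depends on the probe, so signals were compared between arrays and not between genes.

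The 10 keratins and the gene lists were chosen with earlier results of these data known. The text names all members and, of each list, every called gene and up to 4 more with the largest differences; of marker lists, the members on no array and the largest difference. One gene chosen in this way is left unreported. The scripts were tested on simulated data. The alternatives tried were 75th percentile scaling, a normexp background (offset 50, on median spot and background signals, since the planned mean is not in the files used here), 2 filters, the mean of probes, trend and robust fitting, array weights, the methods' t-test, a replicate block, slide row as a block or taken alone, and each array left out. Replicate numbers were not taken to pair the samples. Lists were described by counts and medians with no set test. Positions are given only for the RefSeq promoter windows, since the array design rests on an older assembly.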

Additional observations from a re-analysis of the deposited data

How the results depend on the processing

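With all 6 arrays 2 of the 10 keratins were called. The count stayed at 2 with detection on all 6 arrays, with trend and robust fitting and with slide row as a block, and it was 3 by the methods' t-test without adjustment. It was 1 with scaling to the 75th percentile (*Krt16*), with normexp background (*Krt17*) and with the mean of a gene's probes (*Krt17*), and 0 without a filter on dim probes, with the methods' t-test after Benjamini-Hochberg adjustment and with the replicate block. It was 5 with array weights and within slide row 1, and from 0 to 5 when 1 array was left out, 5 without TGF-β1 replicate 3 and 0 without any of the others. Keratins with an adjusted p under 0.05, 2 with all arrays, numbered 1 with scaling to the 75th percentile and with the mean of probes, 0 without a filter, after Benjamini-Hochberg adjustment of the t-test and with the replicate block, 6 with array weights, 5 within slide row 1 and 0 to 5 with 1 array left out. Keratins whose groups did not overlap, 3 with all arrays, numbered 9 within slide row 1, where 2 arrays face 2 and 70.9% of all genes do not overlap, and 3 to 7 with 1 array left out, where 30.2% to 55.3% do not, beside 26.4% with all arrays.

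Signs turned in 6 cases: with scaling to the 75th percentile *Krt7* stood at -0.16 and *Krt18* at -0.070, and within slide row 2, with 1 array per group, *Krt5* stood at -0.20, *Krt6a* at -0.064, *Krt7* at -0.016 and *Krt8* at -0.045. Of the 190 values of single keratins under the alternatives, 152 kept their direction and their side of the threshold or moved by less than the spread between replicates. The cause of these changes was not tested. Over all genes, 171 were called higher and 27 lower. These counts were 49 and 11 without a filter, which tests 22910 genes, 594 and 213 with array weights, 312 and 76 by the t-test without adjustment, 4 and 1 after adjustment, 85 and 18 with the replicate block, 627 and 234 within slide row 1, and from 49 to 553 and from 7 to 156 with 1 array left out. With the replicate block, *Krt16* and *Krt17* each had an adjusted p of 0.0692. Same-numbered arrays deviated together in replicate 2 (r of 0.33 over genes) and not in replicates 1 and 3 (r of -0.01 and -0.05), so the numbers were not treated as pairs, and not every array correlated best with its own number. With 3 arrays per group, a member whose difference missed the threshold may still differ.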
